A study of Caenorhabditis elegans with 2 samples.

Results

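The peaks described are binding sites of LIN-13 at promoters that serve more than 1 gene. A peak was included when its summit lay within 500 bp of annotated 5′ ends of protein-coding transcripts of at least 2 different genes. This held for 298 of 2121 nuclear peaks kept by the irreproducible discovery rate (IDR) procedure, which compares ranked peaks between replicates. Of the 298, 284 were divergent, with a minus-strand gene to the left of a plus-strand gene. In 11 the genes lay on the same strand, and in 3 they lay on opposite strands with crossed 5′ ends. The other nuclear peaks comprised 833 within reach of 1 gene and 990 away from protein-coding 5′ ends.

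The data came from chromatin immunoprecipitation sequencing of whole L4 larvae of Caenorhabditis elegans, as pooled males and females, of strain OP49. Its genotype is unc119(ed3) with the transgene wgIs49, which joins lin-13 to the tags TY1, EGFP and FLAG and also carries unc119. The genotype lists no change to the endogenous lin-13. Per the description the precipitated protein was the tagged copy, although the antibody label names lin-13. The labels do not settle whether untagged LIN-13 was also precipitated, and they do not give the cells in which the tagged copy is made. The 2 biological replicates formed a single group without any contrast of conditions, so all comparisons were between regions. Whole animals were used, so a peak does not tell in which cells it was bound, and fewer bound cells and weaker binding per cell cannot be told apart. The sequencing depth of each replicate is unknown, since the files hold peaks without read counts.

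LIN-13 has zinc fingers and belongs to the synMuv B genes, which restrain vulval fates and keep germline genes silent in the soma, several of which encode members of the DREAM complex around the retinoblastoma-like protein LIN-35. The C. elegans genome is compact, and neighbouring genes often start back to back from a common upstream stretch. A factor bound in such a stretch can be assigned to either gene or to both, and peak data alone do not say which. Many annotated 5′ ends in this species are trans-splice sites a short way downstream of the start of transcription.

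Summit sequences are shown for divergent promoters of high signal value, for members with motifs whose frequency differed from that at single-gene promoters, and for 1 same-strand member. Each runs 5′ to 3′ on the plus strand of ce11, within 80 bp of the summit, read from the RefSeq assembly of the same genome. Capitals mark matches on either strand of GAGAGAG, of the E2F-like TTNNCGC and of TGCGTCT. The rpl-15 and K11H12.8 stretch (chrIV:654839-654999) belonged to the highest member, and the Y17G9B.5 and rpl-20 stretch (chrIV:4749979-4750139) to the next.
rpl-15/K11H12.8: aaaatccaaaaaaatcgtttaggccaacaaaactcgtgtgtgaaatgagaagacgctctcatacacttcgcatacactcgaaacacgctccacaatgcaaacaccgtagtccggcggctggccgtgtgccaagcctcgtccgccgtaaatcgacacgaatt
Y17G9B.5/rpl-20: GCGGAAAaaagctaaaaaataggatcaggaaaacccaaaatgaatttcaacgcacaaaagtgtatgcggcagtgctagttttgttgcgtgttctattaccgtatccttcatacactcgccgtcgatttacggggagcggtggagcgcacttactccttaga
The drr-2 and set-16 stretch (chrIII:13643657-13643817) held TGCGTCT 2 times, written as its reverse complement AGACGCA, and the C17H12.2 and vha-8 stretch (chrIV:6790559-6790719) held a GAGA repeat.
drr-2/set-16: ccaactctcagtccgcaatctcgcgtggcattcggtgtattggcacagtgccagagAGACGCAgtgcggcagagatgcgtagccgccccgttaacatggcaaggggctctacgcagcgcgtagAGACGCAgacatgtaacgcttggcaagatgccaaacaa
C17H12.2/vha-8: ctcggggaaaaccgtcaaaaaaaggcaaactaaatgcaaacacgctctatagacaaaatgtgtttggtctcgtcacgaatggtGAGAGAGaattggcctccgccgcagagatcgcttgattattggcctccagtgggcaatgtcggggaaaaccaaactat
The C47E8.4 and hsp-90 stretch (chrV:14685698-14685858) and the same-strand dld-1 and nspg-9 stretch (chrIV:14464190-14464350) held 1 E2F-like match each.
C47E8.4/hsp-90: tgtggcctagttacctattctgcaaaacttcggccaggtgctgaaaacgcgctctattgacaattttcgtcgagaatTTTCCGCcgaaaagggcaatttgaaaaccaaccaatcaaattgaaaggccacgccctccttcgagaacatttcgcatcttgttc
dld-1/nspg-9: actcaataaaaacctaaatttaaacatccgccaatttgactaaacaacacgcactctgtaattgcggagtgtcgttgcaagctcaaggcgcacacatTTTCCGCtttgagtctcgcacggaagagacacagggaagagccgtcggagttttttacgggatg

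Promoter positions were over-represented among summits, and shared ones most of all. Shared promoter bases held 14.0% of nuclear summits (95% interval 12.6 to 15.6%) and made up 1.27% of the nuclear genome (two-sided exact binomial test, adjusted p = 2.10e-203). Among the 1131 promoter summits, 26.3% were at shared promoters (23.8 to 29.0%), against 5.49% of promoter bases (exact binomial test, adjusted p = 9.29e-115). The same share was 8.57% in the 8533 promoter peaks of the relaxed pooled list that did not reach the IDR list (p = 2.11e-58 by a two-sided Fisher's exact test). These p-values treat summits as independent, although summits cluster, and are too small to that extent.

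The excess lay at divergent promoters. The density of summits was 303 per Mb of divergent promoter bases, 41.4 per Mb where genes lay on the same strand, 45.4 per Mb where opposite ends crossed, and 38.1 per Mb at single-gene promoters. Over all nuclear bases it was 21.2 per Mb. Divergent members made up 95.3% of members (92.2 to 97.4%), against 73.8% of shared promoter bases (exact binomial test, adjusted p = 1.87e-22). The 11 same-strand members stood at a density close to that of single-gene promoters, and 11 and 3 peaks are too few to order the remaining classes.

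Within divergent promoters, summits lay between the genes. In 259 of 284 (91.2%, 87.3 to 94.2%) the summit was between the nearest 5′ ends, which covers 56.9% of divergent bases (exact binomial test, adjusted p = 3.50e-37). The density between the ends was 485 summits per Mb. The 5′ ends were 12 to 947 bp apart, with a median of 404 bp. The summit had a median distance of 134 bp to the nearer end and 276 bp to the farther one. Of the 259 summits between the ends, 187 (72.2%) were closer to the midpoint than to either end. No reference share was computed for this count. The 500 bp limit to both ends also keeps summits of widely spaced pairs near the midpoint by construction. In 180.0 of the 284 both ends were 100 bp or more away.

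**Figure D1:**
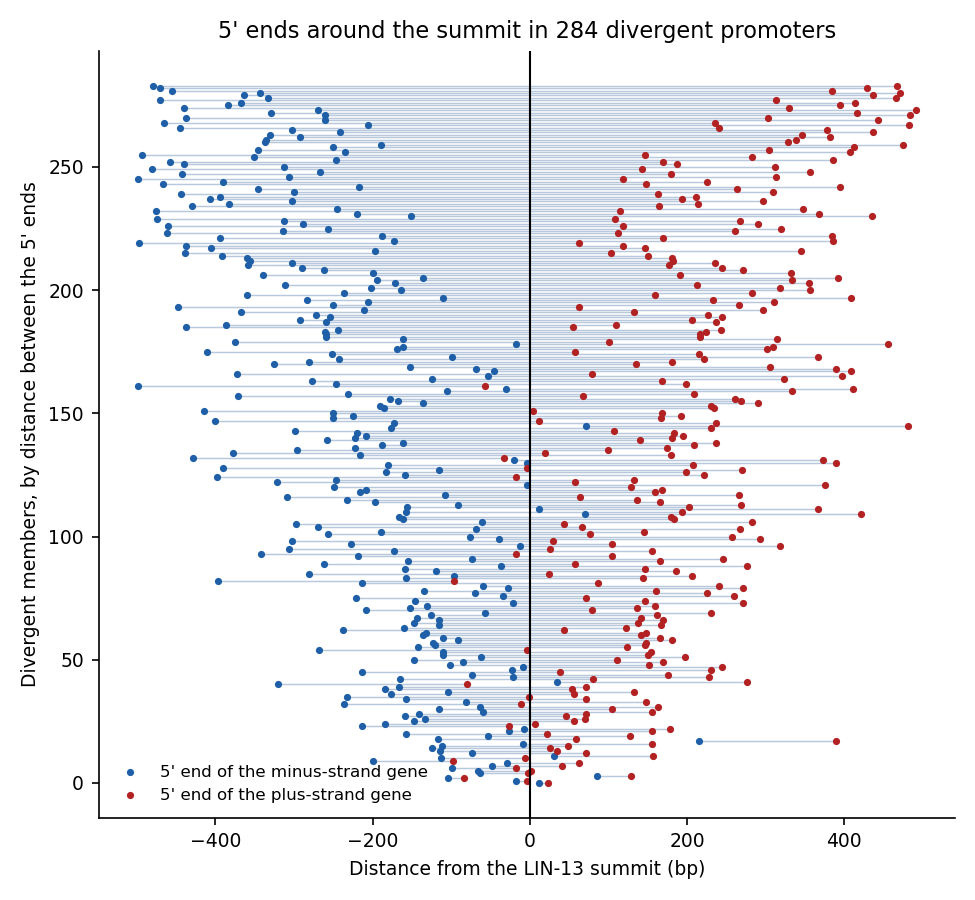
Distance in bp of the nearest minus-strand and plus-strand 5′ ends from the LIN-13 summit (vertical line at 0) in the 284 divergent members, 1 member per line, with the widest pairs at the top. In 259 members the minus-strand end is to the left of the summit and the plus-strand end to the right.

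Counted from the genes, 286 of 1870 divergent pairs with 5′ ends at most 1000 bp apart (15.3%) had a shared IDR summit. For same-strand pairs at such a distance the count was 15 of 759 (1.98%), and for crossed pairs 4 of 122 (3.28%). A member with 3 genes counts for more than 1 pair. By distance between divergent ends, the share was 9.36% at 1 to 200 bp, 23.4% at 201 to 400 bp, 23.1% at 401 to 600 bp, 10.8% at 601 to 800 bp and 1.32% at 801 to 1000 bp. The window within reach of both genes narrows as the ends move apart. Per kb of that common window, the values in the same order were 0.108, 0.332, 0.464, 0.353 and 0.128 bound pairs. Closely spaced divergent ends were therefore bound less often than ends 401 to 600 bp apart on both scales, as a description without a test. The common window also covers bases outside the 2 ends, where few divergent summits lay. The second scale therefore does not correct for the shorter space between close ends.

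**Figure D2:**
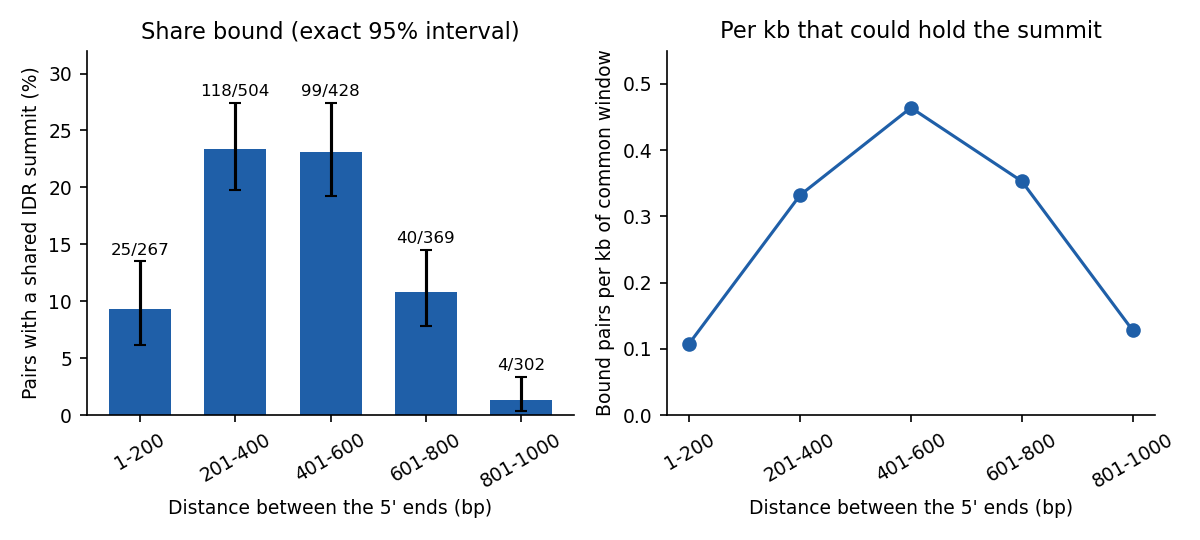
Left, percentage of divergent gene pairs with a shared IDR summit by distance between their 5′ ends, with exact 95% intervals and the counts above the bars. Right, bound pairs per kb of the window within 500 bp of both ends. The highest share is at 201 to 400 bp (23.4%) and the highest value per kb at 401 to 600 bp (0.464).

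Of all 19973 protein-coding genes, 1397 (6.99%) had an IDR summit within 500 bp and 597 (2.99%) were at a shared one. A summit was present at 661 of 3674 genes with a divergent partner (18.0%, 16.8 to 19.3%) and at 150 of 1448 with a same-strand partner (10.4%), where a partner is a gene with a 5′ end at most 1000 bp away. Among the 14920 genes without any partner it was present at 642 (4.30%, 3.98 to 4.64%). A summit near a partner can count for both genes, which raises the first shares by construction.

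The highest divergent member lay between rpl-15, a large ribosomal subunit gene, and K11H12.8, annotated by RefSeq as a growth hormone-inducible transmembrane protein. Its signal value, the peak caller's measure of enrichment, was 381 in the pooled list, 220.2 in replicate 1 and 167 in replicate 2, at chromosome IV from 654815 to 655046. It was the peak of rank 10 in replicate 1 and of rank 12 in replicate 2. The summit lay 343 bp upstream of rpl-15 and 471 bp upstream of K11H12.8, so neither end was close.

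The member between Y17G9B.5, a mitochondrial signalling intermediate by its RefSeq name, and the ribosomal gene rpl-20 had 308 pooled, 174 in replicate 1 and 131 in replicate 2. Its summit was 181 bp upstream of Y17G9B.5 and 281 bp upstream of rpl-20. Between drr-2, an RNA-binding protein gene, and set-16, which encodes a histone methyltransferase of the MLL type, the values were 286 pooled, 157 in replicate 1 and 126 in replicate 2. That summit stood almost midway, 167 bp from drr-2 and 179 bp from set-16. The hsr-9 and rps-19 promoter followed with 269 pooled, 135 in replicate 1 and 132 in replicate 2. Replicate 1 gave the higher number in each of these 4 peaks, but the replicates' lists carry no common scale.

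Y71H2AM.20, an activator of protein phosphatase by its RefSeq name, and cox-6B, a cytochrome oxidase subunit gene, shared a peak of 236 pooled, 142 in replicate 1 and 95.9 in replicate 2. K04G7.1 and the splicing factor gene syf-2 shared one of 229.8 pooled, 143 in replicate 1 and 86.2 in replicate 2. In trap-3 and sec-61.B both genes encode parts of the machinery that moves proteins into the endoplasmic reticulum, and the values were 227 pooled, 134 in replicate 1 and 99.3 in replicate 2. All 3 summits lay between the ends, 102 to 440 bp from them.

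The last 3 of the 10 highest divergent members paired a housekeeping gene with another gene. The peak between rpl-12, a large ribosomal subunit gene, and lin-54, the DNA-binding subunit of DREAM, had 212 pooled, 105 in replicate 1 and 103 in replicate 2. Its summit was 20 bp upstream of rpl-12 and 373 bp upstream of lin-54. The peak of ska-3, a spindle and kinetochore gene, and rps-12 had 204 pooled, 114 in replicate 1 and 91.3 in replicate 2, with the ends 146 bp and 147 bp away. The peak of C47E8.4 and hsp-90, the cytosolic chaperone gene, had 186 pooled, 102 in replicate 1 and 89.7 in replicate 2. All 10 ranked within the first 74 peaks of each replicate.

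Members had higher signal values than single-gene promoter peaks in the pooled list and in each replicate. Signal values of members ran from 40.1 to 381 with a median of 65.9, against 40.1 to 635 with a median of 56.6 at single-gene promoters. All members lay within the range of the single-gene peaks, which also held the highest promoter peaks. Of the members, 60.7% (54.9 to 66.3%, n = 298) were above the median of all promoter peaks, against 46.1% of single-gene peaks (42.7 to 49.6%, n = 833; Fisher's exact test, adjusted p = 7.56e-05 over 10 tests). The 10 tests also treat peaks as independent, with the same effect on p as above, and n counts peaks rather than replicates. The ratio of geometric means, members over single-gene peaks, was 1.13 in the pooled list, 1.13 in replicate 1 and 1.12 in replicate 2. In the stricter list, the 1070 highest peaks, the shares above the median were 55.0% of members and 47.6% of single-gene peaks, and the call was lost.

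Along the ranking, members made up 33.3% of promoter peaks at ranks 1 to 100, 34.7% at 101 to 500, 28.6% at 501 to 1000, 21.1% at 1001 to 1500 and 20.7% at 1501 to 2141. Each of the 298 overlapped a relaxed peak in both replicates, and 832 of 833 single-gene peaks did so in each replicate. The IDR procedure compares peaks between the replicates, so this overlap follows largely from how the list was made. Among as many highest peaks of each replicate as the IDR list holds, 207 members (69.5%) were matched in both replicates, against 508 single-gene peaks (61.0%; Fisher's exact test, adjusted p = 0.0240). A further 52 members were matched in replicate 1 only, 32 in replicate 2 only and 7 in neither. Signal value, which sets these ranks, also differed, and the call was lost in 4 of 8 alternatives.

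**Figure D3:**
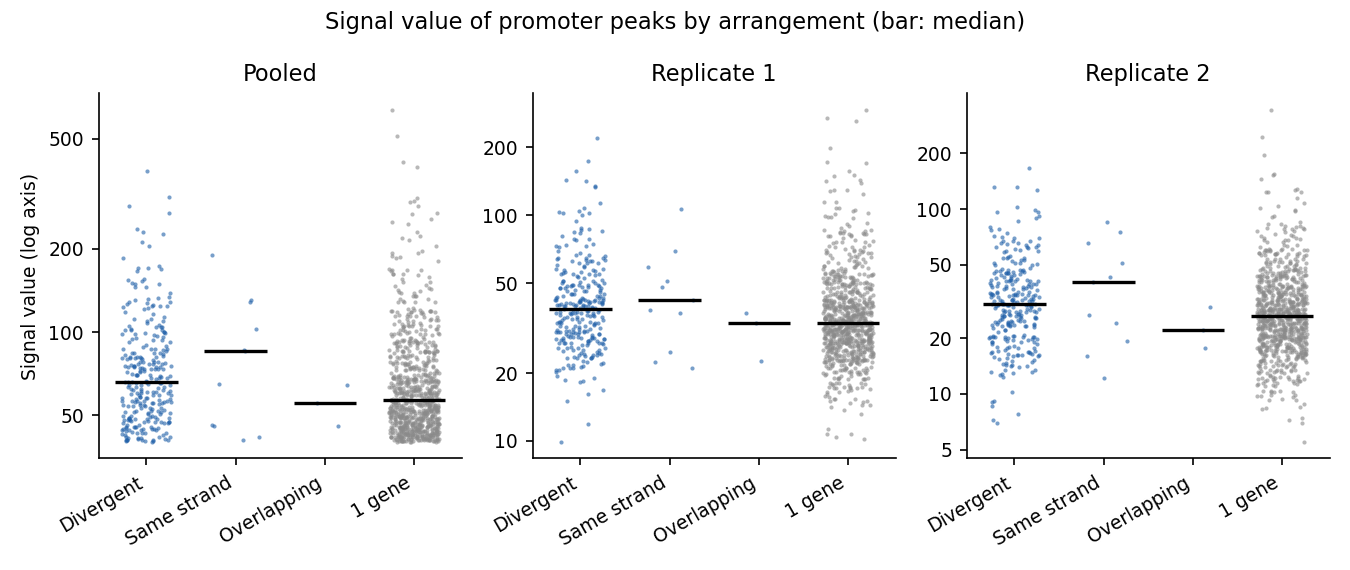
Signal value of IDR promoter peaks on log axes, in the pooled list (left) and of the overlapping peak in replicate 1 (middle) and replicate 2 (right). Points are peaks and bars are medians, for 284 divergent, 11 same-strand and 3 crossed members and for 833 single-gene peaks. The pooled median is 66.0 for divergent members and 56.6 for single-gene peaks, with wide overlap.

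The same-strand members were a mixed set. In 7 of 11 the 2 gene records overlapped, and in 4 of 11 the 5′ ends lay at most 30 bp apart. The highest, 247 bp upstream of dld-1, a dihydrolipoyl dehydrogenase gene, and 310 bp downstream of the 5′ end of nspg-9, had 190.3 pooled, 107 in replicate 1 and 85.0 in replicate 2. The peak of egl-30, which encodes a G protein alpha subunit, and C53H9.4 had 131 pooled, 59.3 in replicate 1 and 75.4 in replicate 2. The gene records of egl-30 and C53H9.4 overlapped by 93 bp, whereas those of dld-1 and nspg-9 were 418 bp apart.

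The remaining same-strand members of the 8 highest were K11D12.14 and pqn-51 (129 pooled), F55A11.6 and F55A11.11 (103), rbm-39 and atg-3 (86.1), tub-2 and Y71G12A.5 (85.6), mcm-4 and Y39G10AR.32 (64.9), and atf-4 with a neighbour known only by its identifier (46.1). The mcm-4 gene encodes a subunit of the replicative helicase, and atg-3 an enzyme of autophagy. The atf-4 peak had 37.0 in replicate 1, where it ranked 842, and 12.2 in replicate 2, where it ranked 5080. It was the least alike in rank between the replicates among these 8.

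The 3 crossed members were at elmd-1 and hecw-1 (64.3 pooled, 33.2 in replicate 1 and 29.4 in replicate 2), D2005.4 and D2005.3 (55.5, 37.0 and 22.2) and abcf-3 and F42A10.5 (45.9, 22.7 and 17.7). In each the summit was upstream of the plus-strand gene and downstream of the 5′ end of the minus-strand gene. Crossing of the ends was 51 to 93 bp.

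No member had 4 or more genes, and 4 members had 3 genes. These were rbc-2, Y54F10AM.15 and ndua-8 (124 pooled), Y62E10A.23, mdt-9 and Y62E10A.20 (105), C34E10.10, C34E10.12 and atp-2 (78.2), and elof-1, lin-7 and Y54G11A.17 (75.5). Of these genes, ndua-8 and atp-2 encode parts of a respiratory complex and of ATP synthase. The symbol mdt-9 names a Mediator subunit, but RefSeq gives the Mediator product name to its neighbour Y62E10A.23 instead. The 4 had signal values above the members' median.

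Genes of protein synthesis, energy supply and protein quality control were frequent at the members, as they were at promoter peaks as a whole. Of 81 cytosolic ribosomal protein genes, 34 (42.0%) were at a member, against 2.99% of all protein-coding genes. The shares were 30.3% for the proteasome (10 of 33), 25.4% for chaperones (15 of 59), 24.6% for the respiratory chain and ATP synthase (17 of 69) and 23.4% for spliceosome proteins (11 of 47). They were 19.2% for nucleolar genes (5 of 26) and 17.5% for translation factors (7 of 40). At any promoter peak the shares were 72.8% for ribosomal protein genes, 51.5% for the proteasome and 33.9 to 40.4% for the others. All protein-coding genes had 6.99%, so the high shares were not particular to shared promoters. Lists were counted by symbol with no test, so genes with other names are missed. An example at a member is Y37E3.8, a large ribosomal subunit gene by its RefSeq name. Of the 597 genes at members, 473 belonged to none of the 16 lists.

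Arrangement and binding differed between these lists. Divergent partners were more common in them than among all genes: 59.3% of ribosomal protein genes and 66.7% of proteasome genes had one, against 18.4% of all genes. Among genes with a divergent partner, 70.8% of ribosomal protein genes (34 of 48), 51.7% of chaperone genes, 48.6% of respiratory genes and 45.5% of proteasome genes were at a member, against 15.5% of all genes with one. For each of these lists the share of paired genes at a member was therefore above the background for paired genes.

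Lower shares were found for aminoacyl-tRNA synthetases (3 of 32), RNA polymerase and Mediator (5 of 59), mitochondrial ribosomal proteins (5 of 70) and cell cycle and replication genes (6 of 56), at 7.14 to 10.7%. Among genes with a divergent partner, 15.5% of all genes were at a member. For mitochondrial ribosomal proteins (17.9%) and cell cycle and replication genes (18.2%) the share was near that background. It was 27.3% for synthetases (3 of 11) and 38.5% for RNA polymerase and Mediator (5 of 13). Of 18 synMuv B and DREAM genes 3 (16.7%) were at a member, a share near that of translation factors (17.5%). All protein-coding genes had 2.99%. The 3 were lin-54, described above, lin-53, which encodes a histone-binding protein, and lin-35. Only 5 genes of this list had a divergent partner, and 3 of these were at a member. At any promoter peak the list had 8 of 18 (44.4%). The lin-53 promoter, shared with nra-2, had 109.7 pooled, 54.7 in replicate 1 and 52.5 in replicate 2. The lin-35 promoter, shared with vps-51, had 82.8 pooled, 50.1 in replicate 1 and 36.4 in replicate 2. Mitochondrial import genes had 0 of 13, too few to read as a low share. Only 2 of the 13 had a divergent partner, and 3 (23.1%) had a summit at any promoter peak. C-type lectins had 0 of 240, F-box genes 2 of 322 and chemoreceptors 1 of 1309. Of these, F-box genes (24.8%) and C-type lectins (22.5%) had divergent partners at least as often as all genes (18.4%).

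**Figure D4:**
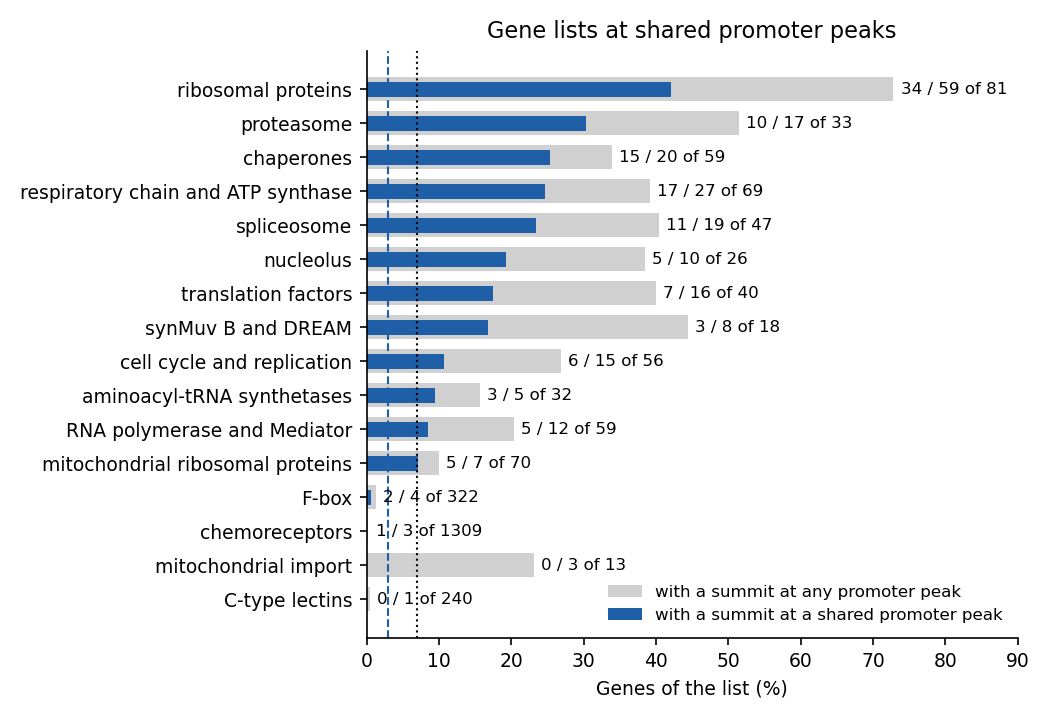
Percentage of the genes of each list with a summit at a shared promoter peak (blue) and at any promoter peak (grey), with both counts and the list size beside the bars. The dashed blue line is the share of all protein-coding genes at shared peaks (2.99%) and the dotted black line that at any promoter peak (6.99%). Ribosomal protein genes have the highest shares, with 34 and 59 of 81.

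Other members of high signal value came from these lists. The ATP synthase gene atp-1 shared a peak with mcrs-1 (174 pooled, 102 in replicate 1 and 69.8 in replicate 2), with the summit 6 bp from its end. The chaperonin gene cct-8 shared one with Y55F3AR.2 (154, 104 and 50.8). The elongation factor gene eef-1A.1 shared one with rfc-4, a clamp loader subunit gene (134, 68.4 and 67.4). In rpn-3 and hsp-110 a proteasome lid gene and a chaperone gene shared one (131, 69.2 and 66.8). Further elongation factor promoters were those of eef-1B.1 with aco-2 (127 pooled) and of eef-2 with clsp-1 (124 pooled).

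Nucleolar and RNA genes came next. The nol-10 and cec-5 peak had 118 pooled, and the peak of fib-1, which encodes fibrillarin, and mut-15, a gene of the small RNA pathway, had 100.1. The prp-40 and clu-1 peak had 98.1 pooled but 34.8 in replicate 1, at rank 972, and 59.6 in replicate 2, at rank 154. The W08E3.4 and snr-2 peak had 73.9 pooled, at rank 360 in replicate 1 and 1384 in replicate 2. These 2 members differed in rank between the replicates in opposite directions.

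In 4 members both genes came from 1 list. The ribosomal pairs were rpl-24.1 with rps-10 (138 pooled, 78.6 in replicate 1 and 62.6 in replicate 2), rps-30 with rpl-39 (79.8, 46.5 and 33.9) and rps-14 with rpl-36 (61.8, 38.8 and 23.9). The spliceosome pair was rsp-5 with snr-3 (58.0, 29.9 and 28.6). The 3 ribosomal pairs each joined a large and a small subunit gene, and their summits lay 227 to 412 bp upstream of either end.

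In 28 members a ribosomal protein gene, counted by symbol, and another gene lay on opposite strands. The summit was nearer to the partner in 18 of 28, a count that was not tested. The 18 include 2 nearly equal cases, rps-12 with ska-3 (147 and 146 bp) and rpl-21 with C14B9.10 (313 and 312 bp). The summit lay a median of 299.5 bp upstream of the ribosomal protein gene (20 to 392 bp) and 178 bp upstream of the partner (3 to 471 bp). Distances over 200 bp were found for 23 of the 28 ribosomal protein genes and 11 of the 28 partners, against 48.8% of 568 ends over all divergent members. The rpl-30 and pab-1 member was the most lopsided towards the partner, 375 bp from rpl-30 and 3 bp from pab-1, which encodes poly(A)-binding protein. It was singled out after its values were seen. The rpl-12 and lin-54 member was the opposite case.

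The X chromosome held few members. It had 13 of 298 (4.36%, 2.34 to 7.34%), against 130 of 833 single-gene peaks (15.6%, 13.2 to 18.3%; Fisher's exact test, adjusted p = 7.79e-07). Its share of shared promoter bases was 6.25%, against 14.8% of single-gene promoter bases. Per Mb of shared promoter, members numbered 164 on X, 161 on V, 175 on II, 226 on IV, 318 on I and 339 on III. On X, members were 9.09% of promoter summits and shared bases 2.39% of promoter bases. Measured in this way X stood beside V and II, as a description.

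The sequence around the summits differed from that at single-gene promoters in 3 of 7 motifs searched on both strands within 100 bp. The GAGA repeat GAGAGAG was present at 28 of 298 members (9.40%, 6.33 to 13.3%) and at 144 of 833 single-gene peaks (17.3%; Fisher's exact test, adjusted p = 0.00318). TGCGTCT was present at 11.1% of members and 16.7% of single-gene peaks (exact test, adjusted p = 0.0430). The E2F-like TTNNCGC was present at 54.4% of members and 46.7% of single-gene peaks (exact test, adjusted p = 0.0430). The TGCGTCT call was lost in 6 of 10 alternatives, the E2F-like call in 5 of 10 and the GAGA call in 1 of 10. The motifs were chosen with earlier results of these data known, which these p-values do not take into account.

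The other motifs did not pass the test. The SP1-like CCGCCC was at 12.8% of members and 11.4% of single-gene peaks (exact test, adjusted p = 0.531), and the E-box CACGTG at 3.69% and 5.64% (exact test, adjusted p = 0.317). The CHR-like TTTGAA was at 41.6% of members and 38.8% of single-gene peaks, and AGATAA, the GATA motif, at 8.05% and 9.72% (exact tests, adjusted p = 0.465 for both). Base composition differed along with the motifs: mean GC content of the 201 bp windows was 41.6% ± 5.95 at members and 43.2% ± 6.65 at single-gene peaks (SD over windows). It was 36.4% ± 6.03 at 731 relaxed peaks at shared promoters outside the IDR list, and 33.9% ± 6.46 at the midpoints of 1480 divergent pairs without a summit. The part of base composition in the motif shares was not tested.

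Against these relaxed peaks and unbound midpoints, members had higher shares of 4 motifs. GAGAGAG was at 6.29% of the relaxed shared peaks and 3.85% of the unbound midpoints, TGCGTCT at 5.47% and 2.97%, TTNNCGC at 38.0% and 27.1%, and CCGCCC at 5.47% and 4.73%. The other 3 had lower shares at members than in those sets: TTTGAA was at 50.1% of relaxed peaks and 52.6% of midpoints, AGATAA at 11.9% and 14.1%, and CACGTG at 3.97% and 4.39%. No test was made of these differences, and a match of letters is not evidence that a factor binds there.

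**Figure D5:**
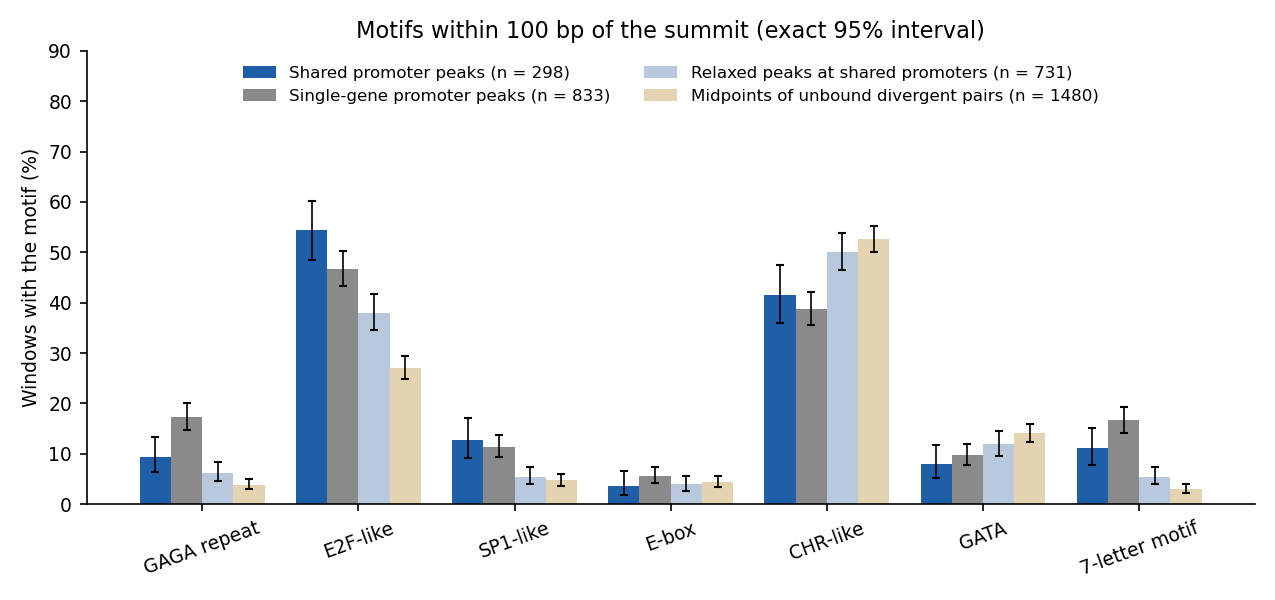
Percentage of 201 bp windows with each motif, with exact 95% intervals, at members (blue), single-gene peaks (dark grey), relaxed shared peaks outside the IDR list (light blue) and midpoints of unbound divergent pairs (beige). The motif at the right is TGCGTCT. The share with a GAGA repeat is 9.40% at members and 17.3% at single-gene peaks.

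The limit of 500 bp cut through a continuum. Just inside it was the member of T16G1.18 and T16G1.9, with the farther end 499 bp from the summit and a signal value of 56.3. The member of C06A5.3 and simr-1, with a signal value of 93.6, had its farther end at the same distance. Just outside was the peak near T19H12.2 and ugt-12, a glucuronosyltransferase family gene, with the farther end 502 bp away and a signal value of 48.9.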

How the data were processed

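Chromatin of 2 biological replicates of whole L4 larvae was analysed (fragment sizes 150 to 350 bp in the labels). The authors deposited peak lists, 1 relaxed list per replicate, 1 for the replicates pooled, and an IDR list of 2141 pooled peaks. The aligner, the caller and the threshold are unknown (not given in the sources used here). Signal values were deposited by the authors without a stated scaling. They were used to rank within a list, and replicates were compared by rank or by ratios within each list. The deposited −log10 q-value was the same for every IDR peak and was not used for ranking. The ce10 lists were not used here. Depth is unknown, and intervals cover counting error only.

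Summits on ce11 were set against Ensembl release 115 and the RefSeq sequence of the same assembly. Mitochondrial peaks were left out. Shares were compared by two-sided exact binomial or Fisher's exact tests, with Clopper-Pearson 95% intervals and Benjamini-Hochberg adjustment within 4 binomial and 10 Fisher tests (threshold 0.05). The comparison with relaxed peaks outside the IDR list was taken out of the binomial family after its result was known and is unadjusted, which changed no call. Named genes were the 10 divergent, 8 same-strand and 3 crossed members of highest signal value, up to 3 members per list, members with both genes from 1 list and those at the distance limit. 1 of these members is not reported here. Members, lists and motifs were chosen with earlier results of these data known. Alternatives were 1 replicate alone, stricter and looser lists, other distances, windows and overlaps, 1 end per gene and 1 summit per gene set. Steps were tested on simulated summits. The software was SciPy 1.17.1, pandas 2.3.3 and NumPy 2.4.6 on Python 3.11.15, with plots from matplotlib 3.10.9.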

Additional observations from a re-analysis of the deposited data

How the results depend on the processing

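The 4 position results and the X share kept their direction and their call in all 8 alternatives run for each. With 1 replicate alone, the shared share of nuclear summits was 12.8 to 14.0%, the shared share of promoter summits 24.9 to 26.6%, the divergent share 92.3 to 95.9% and the share between the ends 88.8 to 91.9%. No paired analysis was possible because both replicates belong to the same group.

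The share of members above the median signal value lost its call in the stricter list (55.0%). The share matched in both replicates lost it in the stricter list (96.3%), at 200 bp (71.4%), with 1 end per gene (69.0%) and with overlap of 50% of both peaks (60.7%), and had no value with 1 replicate alone. GAGA lost its call at 200 bp (10.4%). The E2F-like motif lost it in the stricter list (58.2%), at 200 bp (62.3%), with 1 end per gene (54.4%) and in motif windows of 50 bp (35.2%) and 200 bp (66.4%). TGCGTCT lost it in the stricter list (13.2%), at 200 bp (7.79%) and 1000 bp (12.4%), with 1 end per gene (11.5%) and in the 50 bp window (7.72%). With 1 replicate alone it was at 9.46 to 11.8% of members, and the call was lost without replicate 1. CHR-like passed at 1000 bp (42.7%) and turned its direction at 200 bp (40.3%). The E-box passed, lower at members, in the looser list (3.82%) and the 200 bp window (5.03%), and turned its direction in the 50 bp window (3.36%). SP1-like turned its direction in the 50 bp window (6.71%) and without replicate 2, with 10.1 to 11.8% over the single replicates. The causes were not tested, though fewer peaks are compared in the stricter list and at 200 bp, where 77 members remained.

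The share of genes with a partner that had a summit was 13.7 to 14.9% with 1 replicate alone, 9.20% in the stricter list, 24.1% in the looser list, 11.8% at 200 bp and 12.9% at 1000 bp, and the cause was not tested. List genes at members numbered 24.0 at 200 bp and 190.0 at 1000 bp, against 124 at 500 bp. Depth is unknown, and 2 replicates limit what the lists can separate.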

Other observations

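Genes at divergent members were often followed closely by a gene on the same strand. Of 570 such genes, 209 (36.7%, 32.7 to 40.8%) had the next such gene within 500 bp, against 242 of 800 genes at single-gene peaks (30.2%), 646 of 3013 genes of divergent pairs without a summit (21.4%) and 18.7% of all protein-coding genes. Such spacing is usual in C. elegans operons, but operon annotation was not used here.

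Non-coding genes lay within reach of 61 members (20.5%) and 179 single-gene peaks (21.5%). A tRNA gene was near 2 members and 43 single-gene peaks. Summits on soft-masked repeats made up 16.8% of members and 16.0% of single-gene peaks.

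A recurring stretch was noticed in the summit sequences and then counted, so these values are a description with no test. Of 20122 distinct sequences of 8 letters in the members' windows, GCGAGACC differed most in share between members and relaxed shared peaks outside the IDR list. It was at 40 of 298 members (13.4%) and 23 of 731 relaxed peaks (3.15%). It was also at 51 of 833 single-gene peaks (6.12%), 117 of 7802 relaxed single-gene peaks and 2.30% of the midpoints of unbound divergent pairs. CGAGACCC, of which 7 letters are shared with it, was at 11.7% of members, and with 7 letters the first was GAGACCC (15.8% of members and 4.10% of relaxed shared peaks). GC content was higher at members than at relaxed shared peaks (41.6% and 36.4%), and its part was not tested. The members with GCGAGACC included wapl-1 with htz-1, rpn-3 with hsp-110, fib-1 with mut-15 and frg-1 with ubq-2, named after their values were seen. For the first pair, a cohesin release factor gene and the histone variant gene htz-1 (chrIV:4445822-4445982), and for the second (chrIII:8447075-8447235), the stretches are shown on the plus strand of ce11, with this sequence and any E2F-like match in capitals.
wapl-1/htz-1: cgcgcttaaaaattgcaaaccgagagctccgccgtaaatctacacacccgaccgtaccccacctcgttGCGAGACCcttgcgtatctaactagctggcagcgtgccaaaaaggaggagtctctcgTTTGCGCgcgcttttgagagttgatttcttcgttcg
rpn-3/hsp-110: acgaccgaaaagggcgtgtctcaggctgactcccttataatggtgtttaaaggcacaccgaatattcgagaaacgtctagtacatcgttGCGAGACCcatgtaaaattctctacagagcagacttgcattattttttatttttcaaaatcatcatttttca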
